A study of Mus musculus with 10 samples.

Results

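A set of 10 genes of the skeletal tissues was followed here through the transcriptome of sacral neural crest progenitors (NCPs): the cartilage matrix genes *Acan*, *Matn1*, *Matn3*, *Hapln1* and *Chad*, and the bone genes *Ibsp*, *Sp7*, *Runx2*, *Alpl* and *Spp1*. The genes were chosen by name from the annotation of the array, and each was represented by the brightest probe set, by its mean over all 10 arrays, that carries no other gene symbol. Of the 10 genes, 8 were measured by this rule among 19937 genes in all, while *Runx2* and *Spp1* are not analysed here. The NCPs were cells of *Sox10*-H2BVenus transgenic mice at embryonic day 13, released from the dissected lower urogenital tract and sorted for the fluorescent reporter, and 3 RNAs of them were each hybridized to 1 Affymetrix mouse Gene 1.0 ST array. RNA of whole embryos was hybridized to 7 arrays, and the labels give neither the stage nor the genotype of these embryos. By the array names the total embryo arrays carry 2 RNA preparations, called A (3 arrays, named in the same series as the NCP arrays) and B (4 arrays). Arrays whose names share an RNA number are taken to repeat the same RNA, which the labels do not state. The name of total embryo replicate 6 writes this number in another form than the other B arrays, and it was counted with them. The p-values against total embryo thus pool the spread between 3 NCP RNAs with that of repeat arrays of 2 total embryo RNAs. For *Matn1*, *Matn3*, *Chad*, *Ibsp* and *Sp7* the standard deviation in NCP was 1.99 to 6.78 times that in total embryo. The reporter marks cells with *Sox10* regulatory activity, which include both neural crest progenitors and glia.

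Cartilage is laid down by chondrocytes, whose matrix holds collagen fibrils and a gel of aggrecan bound to hyaluronan. Bone is made by osteoblasts, which secrete collagen, deposit mineral with the help of alkaline phosphatase and acidic phosphoproteins, and depend on the transcription factors Runx2 and Sp7. Cranial neural crest forms cartilage and bone of the face, whereas sacral neural crest is known for autonomic neurons and glia of the pelvic organs. A whole embryo can include limbs, ribs and skull with a forming skeleton, depending on its stage, which the labels do not give here.

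The stretches ahead of *Ibsp* and *Hapln1* are shown because in no other member were the NCP arrays wholly separate from those of total embryo. Promoter windows of 250 bases before a listed start were found in RefSeq (GRCm38.p6) for 7 of the 8 measured genes. *Alpl* has more than 1 start, which gives 8 windows, and the *Hapln1* window runs into the annotated gene. Capitals mark a homeodomain core (TAATTG, read on either strand) in *Ibsp*, whose last base printed is the base before the start, and a RUNX core (TGTGGT, on either strand) in *Hapln1*, whose stretch stops before the annotated gene.
Ibsp, chr5:104299037-104299286, plus strand: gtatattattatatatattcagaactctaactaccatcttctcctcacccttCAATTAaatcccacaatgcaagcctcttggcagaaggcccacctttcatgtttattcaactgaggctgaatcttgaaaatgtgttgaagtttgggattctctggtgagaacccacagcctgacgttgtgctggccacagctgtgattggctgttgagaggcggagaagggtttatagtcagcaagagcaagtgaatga
Hapln1, chr13:89540386-89540528, plus strand: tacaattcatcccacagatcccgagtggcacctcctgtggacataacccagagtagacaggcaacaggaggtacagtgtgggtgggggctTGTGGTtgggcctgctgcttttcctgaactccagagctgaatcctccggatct

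The RUNX core was present in 2 of the 8 windows and in 14% of all 32851 windows. In *Hapln1* it began 160 bases before the end of the window, which lies inside the annotated gene, and in *Matn1* 134 bases before the start. The homeodomain core was present in 1 of 8, *Ibsp* at 198 bases before the start, against 7.17% of all windows. The SOX core (AACAAT) was found in 0 of 8 against 9.42%. The searched letters do not overlap each other in these windows, and a match or its absence describes letters only.

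Values are log2 units of the normalized array signal, and an array probe set gives a level relative to itself on other arrays, not relative to other genes. The 3 NCP arrays had a narrower spread than the total embryo arrays, with a standard deviation (SD) over probe sets of 0.97 to 1.13 against 1.78 to 1.91. The median of the housekeeping genes exceeded that of 1190 olfactory and vomeronasal receptor genes by 3.27, 0.95 and 4.31 on NCP replicates 1, 2 and 3. The excess was 6.87 to 7.53 in total embryo, so that NCP replicate 2 stood apart. Across all genes, fold changes were on average negative for probe sets bright in total embryo and positive for dim ones. A level adjustment was made for this, which subtracts from each array the smooth trend of its difference from the total embryo mean on that mean, and every member is given with and without it. *Sox10*, whose reporter was sorted, read 7.95, 7.14 and 7.60 in NCP and from 6.38 to 6.65 in total embryo. The fold change was 1.002 on the log2 scale (SE 0.18, limma adjusted p = 2.78e-04), and with arrays averaged per RNA preparation it was 1.01 and did not pass (limma adjusted p = 0.0584).

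Across the group, 6 of the 8 measured genes were lower in NCP than in total embryo, 0 were higher and 2 did not pass (limma, Benjamini-Hochberg adjusted p under 0.05). Of all 28192 probe sets tested, 27.5% were lower by the same rule and 39.6% higher. With each array centred on the receptor genes, that split was 21951 lower and 1348 higher probe sets against 7747 and 11158 as deposited, and all 8 members were lower. The median log2 fold change of the 8 genes was -0.68, against 0.23 over all probe sets. After level adjustment 3 members were lower (*Matn1*, *Matn3* and *Hapln1*) and 0 higher, where 8.29% of all probe sets were lower and 10.3% higher, and the median was -0.46 against -0.01. When arrays of the same RNA preparation were averaged first, 2 members were lower (*Hapln1* and *Ibsp*), against 14.8% of probe sets. The highest NCP array was below the lowest total embryo array for 2 of the 8 members, and for 21.5% of all probe sets. In sorted cells and whole embryos alike, fewer cells of a type and less RNA per cell cannot be told apart.

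**Figure D1:**
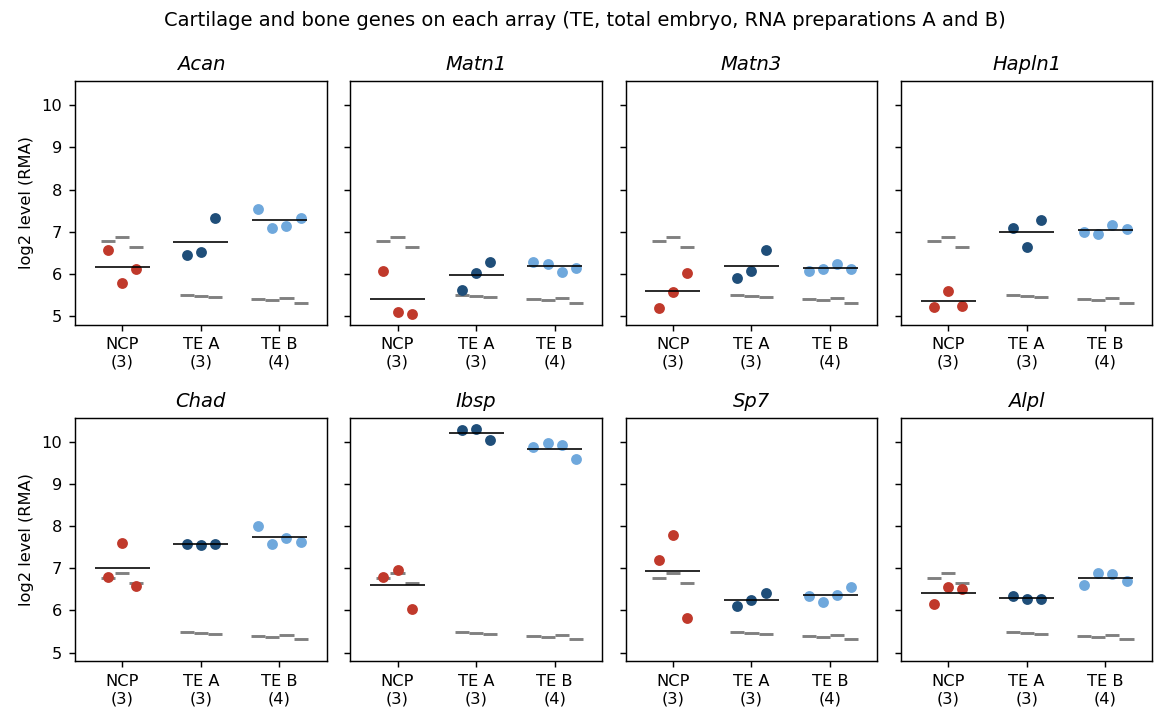
Log2 level (RMA, vertical axis) of each measured gene on each array, with NCP arrays in red and total embryo (TE) arrays of preparations A and B in dark and light blue; black lines are group means and grey bars mark the 95th percentile of olfactory and vomeronasal receptor genes on that array. *Ibsp* and *Hapln1* are separate between NCP and total embryo, the other genes overlap, and the grey bars are higher on the NCP arrays.

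*Hapln1* encodes the link protein that fastens aggrecan to hyaluronan. Its log2 level was 5.22, 5.59 and 5.23 on the NCP arrays, and on the total embryo arrays it ran from 6.63 to 7.27 with a median of 7.06. The groups were separated by a gap of 1.04 log2 units, while the NCP arrays spanned only 0.37. The log2 fold change was -1.68 (SE 0.17, limma adjusted p = 3.25e-06). On no NCP array was *Hapln1* above the 95th percentile of the receptor genes, so that its NCP level is not above background and the size of the difference is not given as a fold; this also holds for *Acan*, *Matn1*, *Matn3* and *Alpl*. After level adjustment *Hapln1* was still lower, at -1.05 (SE 0.18, limma adjusted p = 0.00162).

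*Acan* encodes aggrecan, the large proteoglycan of cartilage that the link protein holds in place. NCP arrays read 6.57, 5.79 and 6.11, and total embryo arrays ran from 6.45 to 7.55 with a median of 7.15. NCP replicate 1 lay above the lowest total embryo arrays, and 5 of the 7 total embryo arrays were above every NCP array. The log2 fold change was -0.90 (SE 0.26, limma adjusted p = 0.00835). After level adjustment it was -0.24 (SE 0.24) and did not pass.

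The matrilins *Matn1* and *Matn3* encode adaptor proteins that link collagen fibrils and proteoglycans in cartilage. *Matn1* read 6.07, 5.08 and 5.05 in NCP and 5.61 to 6.29 in total embryo (median 6.14), so that NCP replicate 1 lay within the total embryo range and the other NCP arrays below it. *Matn3* read 5.18, 5.56 and 6.02 in NCP and 5.90 to 6.57 in total embryo (median 6.12), and here NCP replicate 3 was the array that overlapped. *Matn1* was lower by a log2 fold change of -0.69 (SE 0.24, limma adjusted p = 0.0202) and *Matn3* by -0.56 (SE 0.20, limma adjusted p = 0.0253). Level adjustment left both lower, at -0.85 and -0.68 (limma adjusted p = 0.0210 and 0.0286). Each call rested on single NCP arrays: *Matn1* no longer passed without NCP replicate 2 (-0.53, adjusted p = 0.0893) or 3 (-0.51, adjusted p = 0.0946), and *Matn3* without NCP replicate 1 (-0.36, adjusted p = 0.130) or 2 (-0.55, adjusted p = 0.0517), by limma on the remaining arrays.

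*Chad* encodes chondroadherin, a leucine-rich repeat protein of cartilage that binds chondrocytes. NCP arrays read 6.80, 7.61 and 6.59, and total embryo arrays 7.56 to 8.01 with a median of 7.59. NCP replicate 2 was within the total embryo range and the other NCP arrays were below it. The log2 fold change was -0.66 (SE 0.21, limma adjusted p = 0.0142), and after level adjustment the sign turned to 0.53 (SE 0.23, adjusted p = 0.130). The call was also lost without NCP replicate 1 (-0.56, adjusted p = 0.0551) and without NCP replicate 3 (-0.46, adjusted p = 0.0757), again by limma.

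*Ibsp* encodes bone sialoprotein, an acidic phosphoprotein of mineralizing bone, and it had the largest difference of the 8 as deposited, but not after cyclic loess (-1.32, against -1.44 for *Hapln1*) or level adjustment. It read 6.81, 6.95 and 6.03 in NCP, and from 9.61 to 10.31 in total embryo with a median of 9.98. The groups were separated by 2.65 log2 units, more than the whole range of either group (0.93 in NCP and 0.71 in total embryo). The log2 fold change was -3.41 (SE 0.22, limma adjusted p = 9.89e-08), and 1.15% of all genes had a lower fold change. In NCP 2 of the 3 arrays were above the receptor floor, but only narrowly (6.81 against 6.77 and 6.95 against 6.88). The size of the difference is therefore not given as a fold here either. Genes with a high signal in total embryo had negative fold changes in general, and against that trend the adjusted fold change of *Ibsp* was -1.04 (SE 0.36, limma adjusted p = 0.0630), which did not pass.

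*Sp7* encodes osterix, the transcription factor without which mouse osteoblasts do not form. It read 7.21, 7.78 and 5.82 in NCP and 6.10 to 6.55 in total embryo (median 6.34). NCP replicates 1 and 2 lay above every total embryo array and NCP replicate 3 below every one, and the SD was 1.01 in NCP against 0.15 in total embryo. The log2 fold change was 0.62 (SE 0.31, 95% interval -0.06 to 1.30, limma adjusted p = 0.0987). Without NCP replicate 3 it was 1.18 (limma adjusted p = 1.81e-04), so that the result rested on that array. Among the NCP arrays, replicate 3 had the largest excess of housekeeping over receptor genes (4.31). Replicate 2, with the highest *Sp7* reading, had the smallest (0.95). *Sp7* did not pass without NCP replicate 1 or without NCP replicate 2.

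*Alpl* encodes tissue-nonspecific alkaline phosphatase, which frees phosphate for mineral and is also made outside bone. It read 6.16, 6.57 and 6.52 in NCP and 6.28 to 6.90 in total embryo (median 6.598), with the groups overlapping. The log2 fold change was -0.15 (SE 0.19, limma adjusted p = 0.505), and its 95% interval of -0.57 to 0.27 holds changes in either direction. After level adjustment it was 0.07.

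**Figure D2:**
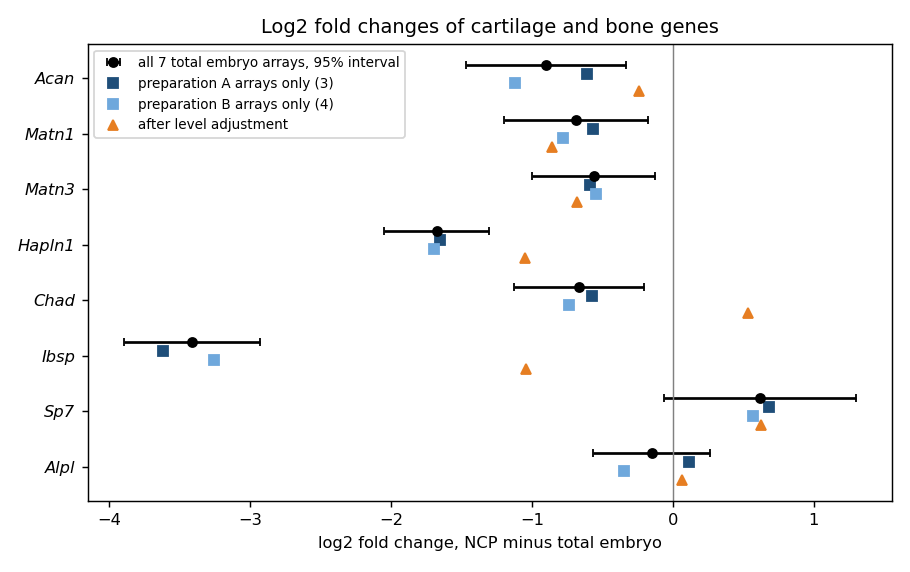
Log2 fold change of each measured gene, NCP minus total embryo (horizontal axis), from all 7 total embryo arrays with 95% intervals (black), against either RNA preparation alone (blue squares, same NCP arrays) and after level adjustment (orange triangles). *Hapln1* is at -1.68, -1.65 against A, -1.69 against B and -1.05 after adjustment, whereas *Ibsp* moves from -3.41 as deposited to -1.04 after adjustment and *Chad* changes sign.

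The receptor genes, whose expression is largely limited to sensory cells of the nose, gave a floor on each array, and a gene was counted as above it when it exceeded their 95th percentile there. All 8 members were above this floor on all 7 total embryo arrays. Of all genes, 68.5 to 72.0% were above it on these arrays. On NCP replicates 1, 2 and 3 it was 3, 3 and 0 of the 8, and 21.3, 15.1 and 26.5% of all genes. *Chad*, *Ibsp* and *Sp7* were above it on 2 NCP arrays each, and *Acan*, *Matn1*, *Matn3*, *Hapln1* and *Alpl* on none. *Hapln1* lay at the 38.2, 47.0 and 40.3 percentiles of the receptor genes on NCP replicates 1, 2 and 3, while in total embryo it stood at the 99.9 percentile on every array. *Ibsp* lay at the 95.4, 95.9 and 79.2 percentiles on the NCP arrays, and *Sp7* at 98.1, 99.4 and 70.6. NCP replicate 3, the array on which housekeeping genes stood farthest above the receptor genes among the NCP arrays, thus had no member above the floor. The floor itself was higher in NCP, at 6.65 to 6.88 against 5.32 to 5.50 in total embryo.

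Relative to other genes of like level, the members lay on both sides of the trend. After level adjustment 2.55% of all genes had a lower fold change than *Hapln1*, 2.59% a lower one than *Ibsp*, 4.79% a lower one than *Matn1* and 8.60% a lower one than *Matn3*, against 87.4% for *Chad* and 90.6% for *Sp7*.

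**Figure D3:**
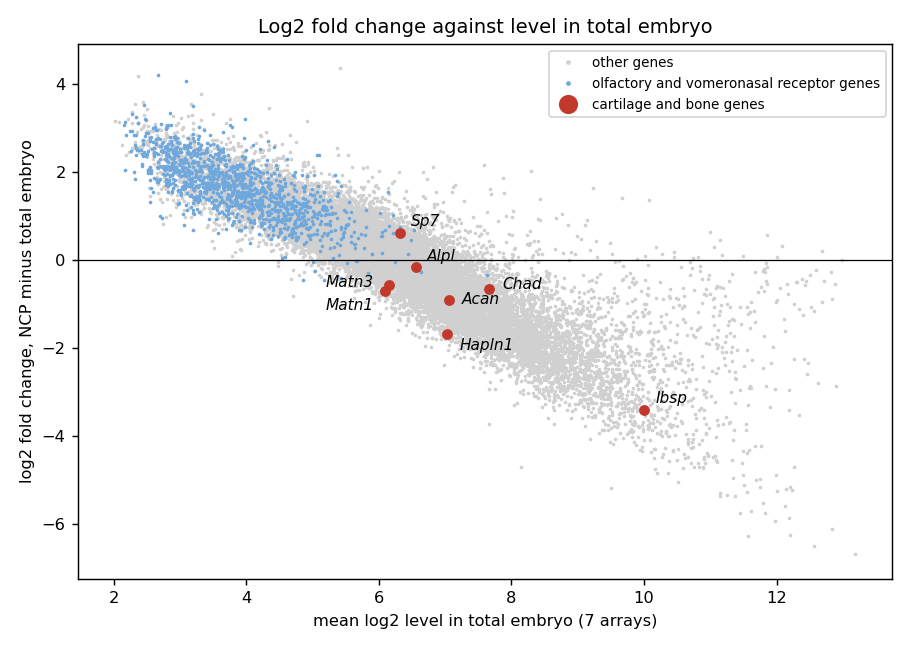
Log2 fold change, NCP minus total embryo (vertical axis), against the mean log2 level over the 7 total embryo arrays (horizontal axis), for all 19937 genes (grey, with receptor genes in blue) and the 8 measured members (red). Fold changes fall with level for genes in general; *Sp7* and *Chad* lie in the upper part of this band at their level, and *Matn1*, *Matn3*, *Hapln1* and *Ibsp* in the lower part.

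The total embryo RNA preparations served to ask how far a member's baseline differs between them. By the dates in the array names every B array precedes every A array, so that RNA and array date cannot be told apart. Between preparation A and preparation B, 0 of the 8 members and 0% of the 28192 probe sets passed (limma adjusted p under 0.05), while 3446 probe sets (12.2%) and 3 members had an unadjusted p under 0.05. In a fit of all 10 arrays in 3 groups the unadjusted count was 987 probe sets (3.5%) and 1 member. Without total embryo replicate 7, an array of preparation A, 221 probe sets passed, none of them a member. Without replicate 1, also of A, 1993 probe sets (7.07%) and 1 member had an unadjusted p under 0.05, and without replicate 2 or 6 it was 1 member too. Arrays of A and B did not overlap for 2 of the 8 members and for 11.6% of all probe sets.

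*Ibsp* was 10.29, 10.31 and 10.04 on the arrays of preparation A and 9.88, 9.98, 9.93 and 9.61 on those of B. Every A array was above every B array, by 0.37 log2 units on average (95% interval 0.06 to 0.68). *Alpl* showed the opposite order, with 6.34, 6.28 and 6.28 in A and 6.60, 6.90, 6.86 and 6.70 in B. Its mean difference of -0.46 (95% interval -0.74 to -0.19) was 3.08 times its difference between NCP and total embryo. *Acan* read 6.45, 6.52 and 7.32 in A and 7.55, 7.08, 7.15 and 7.32 in B, a difference of -0.51 (95% interval -0.996 to -0.03) in which replicate 7 of A lay among the B arrays. For the other 5 genes the difference was between -0.21 and 0.04. Over all genes its median size was 0.15, and 4.54% of genes had a larger one than *Acan* and 6.38% a larger one than *Alpl*.

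**Figure D4:**
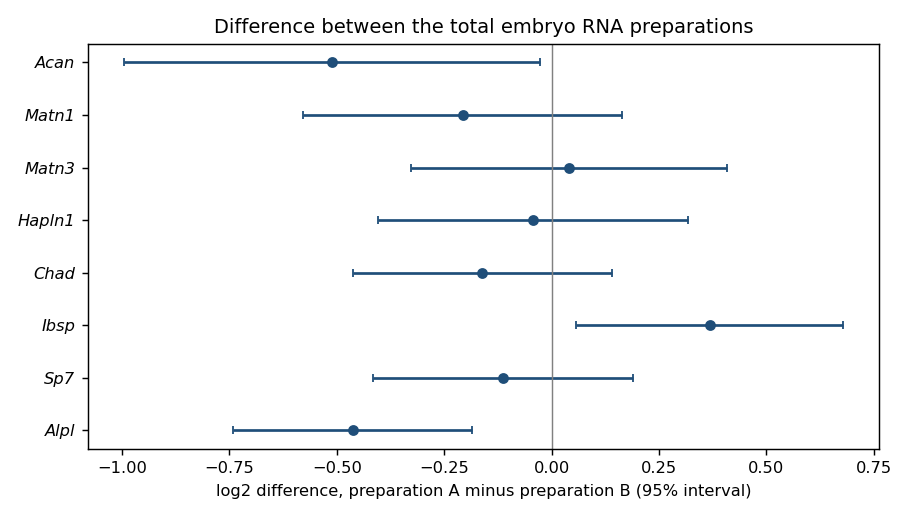
Difference in log2 level between the total embryo RNA preparations, A minus B (horizontal axis), for each measured gene, with 95% intervals from limma over 3 and 4 arrays. *Acan*, *Ibsp* and *Alpl* have intervals that leave out 0 before adjustment for the number of probe sets tested, and 0 members pass after it.

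The calls differed with the preparation used, although no member passed the test of A against B itself. Against preparation A alone only *Hapln1* (-1.65) and *Ibsp* (-3.62) were lower in NCP, where 19.5% of probe sets were lower. Against preparation B alone *Acan* (-1.12), *Matn1* (-0.78), *Hapln1* (-1.69), *Chad* (-0.73) and *Ibsp* (-3.25) were lower, where 24.1% of probe sets were. *Matn3* was at -0.58 against A and -0.54 against B and passed in neither. These comparisons share the 3 NCP arrays. *Acan* against A was -0.61 (limma adjusted p = 0.167), and *Alpl* had opposite signs, 0.11 against A and -0.35 against B, neither of which passed. The 3 NCP arrays carry the same date in their names, shared with 1 total embryo array (replicate 1, preparation A), and against that array alone *Ibsp* was the single member that passed, where 2.45% of probe sets were lower. With 1 total embryo array that test takes its spread from the NCP arrays and assumes the lone array to vary like them.

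Around the members, 5 lists of skeletal genes were described, with 95 genes listed and each gene's probe set chosen as above. Other cartilage matrix genes had 11 of 22 measured genes lower in NCP, 2 higher and 9 not passing, with a median log2 fold change of -0.56. The shares to set beside each list are the 27.5% of all probe sets lower and 39.6% higher. The largest decreases were *Ucma* at -1.91, a secreted protein of the growth plate, and *Cnmd* at -1.81, the angiogenesis inhibitor chondromodulin, and *Cnmd* was above the receptor floor on 0 NCP arrays. Neither passed after level adjustment (0.09 and -0.26, limma adjusted p = 0.859 and 0.312). *Matn4* (1.13) and *Col9a2* (0.42), a chain of collagen IX, were higher, but *Matn4* was above the receptor floor on 0 of the 7 total embryo arrays, and the call of *Col9a2* was lost without NCP replicate 1 (0.34, limma adjusted p = 0.0951) or without any of total embryo replicates 3, 4, 6 and 7 (adjusted p = 0.0544 to 0.0598). *Col2a1*, the main cartilage collagen, named after its values were seen, was 6.96 ± 0.24 in NCP (SD, n = 3) and 6.89 ± 0.15 in total embryo (SD, n = 7), with a log2 fold change of 0.07 (95% interval -0.28 to 0.43). It was higher in NCP after level adjustment, at 0.58 (SE 0.15, limma adjusted p = 0.0201). After level adjustment 1 gene of this list was lower and 3 higher, with a median of 0.12. *Col9a2* was among the higher ones (1.05, limma adjusted p = 0.00110), and *Matn4* did not pass (0.23, limma adjusted p = 0.573).

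Cartilage regulators had 6 of 18 lower and 1 higher, with a median of -0.02. *Mef2c*, a factor of chondrocyte hypertrophy that also acts in muscle, was lower at -3.53 and remained lower after level adjustment (-1.22, limma adjusted p = 0.00331), with 0 NCP arrays above the floor. *Trps1*, a zinc finger repressor of cartilage, was lower at -3.31, with an SD of 2.35 in NCP against 0.41 in total embryo. It did not pass after level adjustment (-0.95, limma adjusted p = 0.263). *Runx3*, a paralogue of *Runx2*, was higher at 0.64 and above the receptor floor on 0 NCP arrays, and did not pass after level adjustment (0.17, limma adjusted p = 0.550). *Sox5*, a partner of Sox9 in chondrocytes, was at 0.38 (limma adjusted p = 0.0852), and it passed without NCP replicate 1 (0.49, adjusted p = 0.0472) or without total embryo replicate 3 (0.46, adjusted p = 0.0365). *Sox9* itself, the defining factor of chondrocytes and also named after its values were seen, averaged 6.34 in NCP and 7.18 in total embryo, which is a fold change on the log2 scale of -0.84 (limma adjusted p = 5.14e-04) that became -0.07 after level adjustment, and it too was above the floor on 0 NCP arrays.

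Other genes of bone matrix and mineral had 10 of 17 lower and 2 higher, with a median of -0.50. *Sparc*, the collagen-binding protein osteonectin, was lower at -5.21, and *Postn*, periostin of bone surfaces and other connective tissue, at -4.45. Both were still lower after level adjustment (-2.47 and -1.90, limma adjusted p = 0.00341 and 3.03e-04). *Smpd3*, a sphingomyelinase needed for mineralization in mice, was higher at 0.59, but did not pass after level adjustment (0.22, limma adjusted p = 0.375). *Mepe*, an acidic phosphoprotein of osteocytes, was higher at 1.54, but it was above the receptor floor on 0 arrays of either group. It did not pass after level adjustment either (0.23, limma adjusted p = 0.428).

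Bone regulators were divided, with 7 of 18 lower and 5 higher and a median of -0.09. The decreases were led by *Cbfb* at -1.69, the partner subunit of the Runx proteins, and *Wif1* at -1.002, a secreted Wnt inhibitor that was above the floor on 0 NCP arrays. *Cbfb* had an SD of 1.36 in NCP and was above the floor on 1 NCP array. After level adjustment *Cbfb* and *Wif1* did not pass (-0.01 and -0.91, limma adjusted p = 0.989 and 0.0624). The increases were led by the homeobox gene *Msx1* at 0.74 and by *Tnfsf11*, the osteoclast-inducing ligand RANKL, at 0.69. *Tnfsf11* was 7.36 ± 0.33 in NCP (SD, n = 3) and 6.67 ± 0.11 in total embryo (SD, n = 7), above the floor on all 10 arrays. It was higher after level adjustment too (0.999, limma adjusted p = 0.00110). With arrays averaged per RNA preparation it was 0.70 and did not pass (limma adjusted p = 0.133). The call of *Msx1* was lost without NCP replicate 1 (0.49, limma adjusted p = 0.0705) and that of *Wif1* without NCP replicate 2 (-0.42, limma adjusted p = 0.0612). *Msx1* also did not pass after level adjustment (0.44, limma adjusted p = 0.188).

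The osteoclast list holds genes linked to bone resorption, not all of them particular to osteoclasts. Of these, 5 of 13 were lower (*Mmp13* at -1.53 among them) and 4 higher, with a median of -0.18. The protease *Ctsk* was lower at -3.39 and the acid phosphatase *Acp5* at -1.59. After level adjustment *Ctsk* was lower as well (-1.32, limma adjusted p = 0.00302), and *Acp5* did not pass (-0.57, limma adjusted p = 0.0656). *Ctsk* and *Acp5* were above the receptor floor on 0 NCP arrays, so their NCP levels are not above background. *Oscar* (0.98), an osteoclast receptor, and the chloride transporter *Clcn7* (0.68) were higher, and they too were above the floor on 0 NCP arrays. Neither passed after level adjustment (-0.13 and 0.10, limma adjusted p = 0.753 and 0.732). After level adjustment the lists other than cartilage matrix had 2, 3, 0 and 1 genes lower and 0, 1, 3 and 0 higher, for cartilage regulators, bone matrix and mineral, bone regulators and osteoclast genes in turn.

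**Figure D5:**
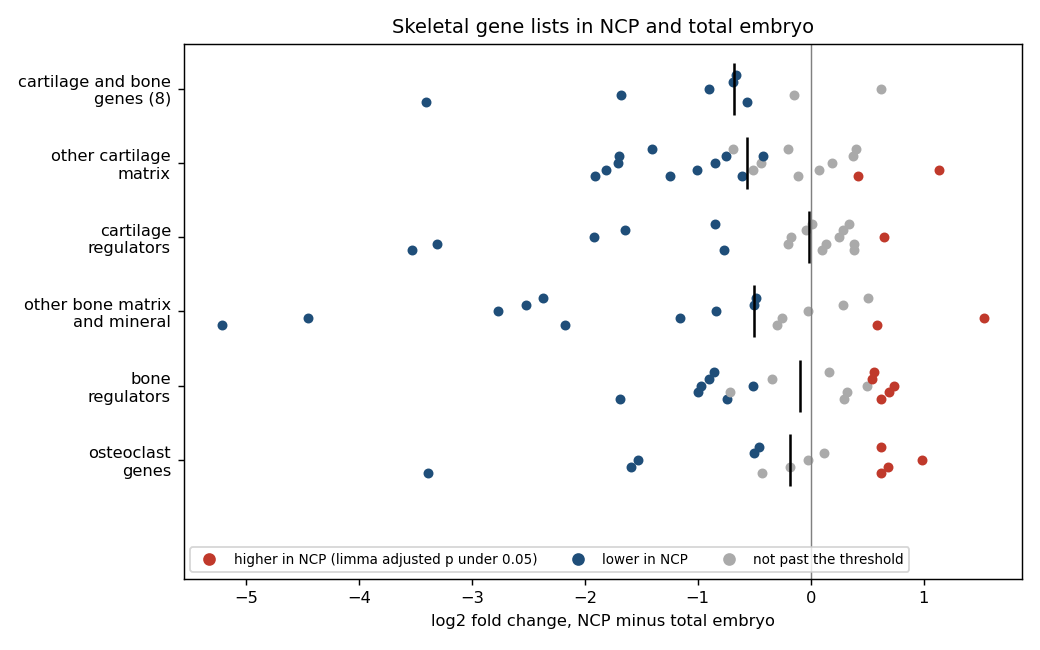
Log2 fold change, NCP minus total embryo (horizontal axis), of each measured gene in the member group and the 5 skeletal lists, coloured by limma call, with black lines at the medians; vertical offsets within a row only separate points. Medians lie between -0.68 for the 8 members and -0.02 for cartilage regulators, and single genes reach -5.21 (*Sparc*).

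The lists depended on the arrays used. With arrays averaged per RNA preparation, the numbers of lower genes were 5 for cartilage matrix, 3 for cartilage regulators, 6 for bone matrix and mineral, 0 for bone regulators and 3 for osteoclast genes, and the only higher gene was in bone matrix and mineral. The lists hold 22, 18, 17, 18 and 13 measured genes in that order. Of all probe sets, 14.8% were lower and 20.4% higher with averaging, so that 3 of 18 cartilage regulators lies near the share lower. Without NCP replicate 2, the array that stood apart, the lower genes numbered 9, 6, 10, 7 and 5 in the same order, and the higher ones 4, 4, 4, 6 and 4. Without that array 26.3% of all probe sets were lower and 39.4% higher, so that 6 of 18 cartilage regulators lies near the share lower.

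Markers of other cell types moved in the same comparison, in which 27.5% of all probe sets were lower and 39.6% higher. Of 10 mesenchyme markers, 7 were lower in NCP and 1 higher (median -2.12), with a mean level of 6.20 to 6.30 on NCP arrays and 7.59 to 7.89 on total embryo arrays. Housekeeping genes were lower in 10 of 10 (median -2.78), which level adjustment left at 3 lower and 2 higher. Neural crest and glial markers had 3 of 7 higher and 2 lower (median 0.43), counts that lie near the shares over all probe sets. Their mean level was 6.001 to 6.86 in NCP against 5.85 to 6.07 in total embryo. Smooth muscle markers had 6 of 8 lower and 1 higher, epithelium markers 7 of 10 lower, endothelium markers 6 of 8 lower and macrophage and leukocyte markers 10 of 12 lower, with medians of -2.09, -1.76, -1.16 and -1.13 in that order. Germ cell markers had 5 of 8 higher (median 1.13), a median that became -0.18 after level adjustment. *Cdh19* of the neural crest list, named after its values were seen, was above the receptor floor on 0 arrays. The mean level of the 8 skeletal members was 5.92 to 6.37 on NCP arrays and 6.92 to 7.22 on total embryo arrays. The part of these cell types, and of the narrower spread of the NCP arrays, in the members' differences was not tested beyond the level adjustment.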

How the data were processed

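The deposited values are log2 signals, and per the labels the authors obtained them with RMA, which corrects background, applies quantile normalization and summarizes probes, in version 1.1 of Affymetrix Expression Console. Which arrays were normalized together is not given in the sources used here, and the labels and the study's methods name different amplification kits. The table has 34760 probe sets, of which 6568 are controls and were not used. The other 28192 were tested with limma 3.58.1 in R 4.3.3 (linear model, moderated test, Benjamini-Hochberg over all probe sets, threshold 0.05). The number of arrays limits the precision. Level adjustment used a lowess span of 0.3. Symbols came from the platform annotation, in which 21640 probe sets carry 1 symbol, 1321 several and 5231 none. Named genes were the 10 members, the 2 largest increases and 2 largest decreases of each skeletal list, and *Sox10*; *Col2a1*, *Sox9* and *Cdh19* were added after their values were seen. The members and lists were chosen with earlier results of these data known. Alternatives changed the total embryo arrays, averaging, block, scaling, weights, prior, filter, threshold and probe set choice, and left out each array in turn. The fit was tested on simulated data. Figures were drawn with Python and matplotlib.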

Additional observations from a re-analysis of the deposited data

Results flagged for a closer look

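Within the 7 total embryo arrays, *Matn1* was lowest on replicate 1 (5.61), and the gap to the next array was 0.615 of the group's whole range. *Chad* was highest on total embryo replicate 3 (8.01), with a gap of 0.655 of the range. Both exceed Dixon's 95% critical value for 7 independent samples, which chance exceeds in about 1 of 20 groups. These arrays are read as repeats of preparations A and B, so that this rate need not hold. All 8 genes were looked at, each also within preparation B alone, where none was flagged. Leaving out total embryo replicate 1 or 3 changed no call of *Matn1* or *Chad* between NCP and total embryo.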

How the results depend on the processing

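Of the 6 members lower in NCP, the count was 2 against preparation A only, 1 against the same-date array only, 2 with arrays averaged per RNA preparation, 2 with the preparation as a random block, 3 after level adjustment, 2 with array weights and 3 at a threshold of 0.01, and it ranged from 4 to 6 with 1 array left out. Over all probe sets the share lower was 27.5% as deposited, 19.5% against preparation A, 2.45% against the same-date array, 14.8% with averaging, 20.2% with the block, 8.29% after level adjustment, 20.6% with array weights and 22.3% at 0.01, so that a count of 2 of 8 lies near that share for preparation A, the block and array weights. *Hapln1* was called under each of these settings except against the same-date array (-1.75, adjusted p = 0.103), and *Ibsp* under each except level adjustment. The count of higher members ranged from 0 to 1 with 1 array left out (*Sp7*, 1.18 without NCP replicate 3). The members' median of -0.68 became -0.30 against the same-date array, -0.98 after quantile normalization, -2.37 with arrays centred on receptor genes and -0.46 after level adjustment, while the median of all probe sets, 0.23 as deposited, became 0.08 after quantile normalization, -0.01 after cyclic loess, -1.46 with receptor centring and 0.11 with median centring.

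Reversed signs were as follows. *Alpl* was 0.11 against preparation A, 0.078 against the same-date array, 0.023 after quantile normalization, 0.084 after cyclic loess and 0.067 after level adjustment. *Chad* was 0.17, 0.65 and 0.53 under the last 3 of these. Cyclic loess gave *Ucma* 0.011 and *Oscar* -0.12, and level adjustment gave them 0.091 and -0.13. Centring on receptor genes, which lowers every value by construction, gave *Sp7* -1.07, *Col9a2* -1.27, *Matn4* -0.56, *Sox5* -1.31, *Runx3* -1.04, *Smpd3* -1.10, *Mepe* -0.15, *Tnfsf11* -0.999, *Msx1* -0.95, *Clcn7* -1.01, *Oscar* -0.71 and *Sox10* -0.69. For preparation A minus B, *Hapln1* was 0.0022 after quantile normalization, 0.0017 after cyclic loess and 0.011 after level adjustment, and with 1 array left out it ranged from -0.18 to 0.14 and *Matn3* from -0.16 to 0.18. Apart from level adjustment and receptor centring, whose construction acts on level, the cause was not tested.

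No paired analysis was possible because the replicate numbers were given in accession order and pair no samples. By the array names each total embryo preparation is 1 RNA, so the spread within it is read as that of repeat arrays. The date in the array names is shared by the groups only through total embryo replicate 1. The narrow spread of the NCP arrays limits what a low member can show, since 5 of 8 members were above the receptor floor on no NCP array. Over all probe sets, the lower and higher calls were 7747 and 11158 as deposited, 4183 and 5761 with arrays averaged per preparation, 691 and 364 against the same-date array, and 2336 and 2903 after level adjustment.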
